A study of Trichoderma reesei with 6 samples.

Results

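The 5 adjacent genes described here, from Trichoderma reesei, were higher on lactose than on glycerol or glucose. The catechol dioxygenase gene in their midst was the 1 of the 5 that was also over 2-fold higher on glycerol than on glucose. Its glucose signals lay in the lowest 10% of all signals. Of all features, 9.07% were over 2-fold higher on glycerol with a limma adjusted p under 0.05. The nearby gene TRIRE2_62576, outside the group, was also over 2-fold higher on glycerol than on glucose. The 5 genes are those of a flavoprotein monooxygenase (TRIRE2_4146), a catechol dioxygenase (TRIRE2_62165), an L-carnitine dehydratase/alpha-methylacyl-CoA racemase (TRIRE2_78462), an alpha/beta hydrolase (TRIRE2_32243) and an acyl-CoA synthetase (TRIRE2_107947), as the study annotated them. They were taken by their identifiers from the 9126 features of the array, and all 5 were measured on every array. Their high signals on lactose in these same arrays were the reason for choosing them, so both lactose differences are given below as a description, with no p-values. Where lactose calls of these genes are counted, the count only restates the choice.

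The strain was QM9414, a mutant obtained early in the selection of T. reesei for cellulase production, and RNA was taken from mycelia grown on lactose, glycerol or glucose as the carbon source, each at 10 g/l. Each carbon source had 2 single-colour arrays. The sample labels give 28 h of growth for lactose and 24 h for glycerol and for glucose, whereas the study's methods give 24 h throughout, so if the labels hold, carbon source and time of harvest cannot be told apart in the lactose comparisons. Glycerol and glucose have the same time in both sources. The study also places the profiles in the initial growth phase, defined by the share of the carbon source consumed. The labels speak of duplicate flasks and also of mixed mycelium from 5 replicates, and p-values therefore measure only the spread between arrays, which may be technical.

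Signals are log2 values summarised by RMA, and 1 unit is a 2-fold difference. They ranged between 2.7 and 15.9 with array medians of 10.8 to 10.85, and the arrays of 1 carbon source correlated across features with r = 0.996 to 0.998. The lowest 10% of all signals lay under 4.66, which is called the low end here. As a check of the labels, cel7a (TRIRE2_123989), the gene of the main cellulase induced by lactose, had 14.23 and 14.22 on the lactose arrays, against 7.64 and 7.78 on glycerol and 6.12 and 6.45 on glucose.

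Fungi that live on decaying wood break down aromatic compounds by adding hydroxyl groups to the ring and then opening it. Flavoprotein monooxygenases can perform the first kind of step, and catechol dioxygenases insert oxygen into the ring of a catechol and open it. Some of them open it to a muconate, which lactonizing enzymes and further steps carry towards the citric acid cycle. The study's annotation does not say of which type TRIRE2_62165 is. Acyl-CoA synthetases activate carboxylic acids as thioesters of coenzyme A, proteins of the L-carnitine dehydratase family act on such thioesters, and alpha/beta hydrolases are a large fold that holds many esterases and lipases. None of the sources used here gives the substrates of the 5 T. reesei proteins.

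In the RefSeq gene table of assembly v2.0 of strain QM6a, the 5 genes followed each other with no other gene between them, and the group covered 11315 bp. In gene order they were TRIRE2_4146, TRIRE2_62165, TRIRE2_78462, TRIRE2_32243 and TRIRE2_107947, with lengths of 1673, 1157, 2072, 917 and 1962 bp. The first 4 genes lay close together, with 388 bp between TRIRE2_4146 and TRIRE2_62165, 704 bp between TRIRE2_62165 and TRIRE2_78462, and 575 bp between TRIRE2_78462 and TRIRE2_32243. The acyl-CoA synthetase gene was set apart by 1867 bp. That table gives no strand, so it was not examined which neighbours are transcribed towards or away from each other.

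The catechol dioxygenase gene TRIRE2_62165, which encodes the ring-opening enzyme, had signals of 10.14 and 10.16 on lactose, 7.28 and 7.41 on glycerol, and 4.17 and 4.13 on glucose. The 3 carbon sources thus gave 3 separate levels, and the glucose arrays lay at the low end. Its mean on lactose was 2.80 log2 units above that on glycerol (95% interval 2.55 to 3.06), a 6.98-fold difference. Against glucose the difference was 6.0 log2 units (5.75 to 6.26), or 64.2-fold, and this fold rests on a glucose mean at the low end.

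The flavoprotein monooxygenase gene TRIRE2_4146 is of a protein family with members that can hydroxylate aromatic rings. It had 9.39 and 9.55 on lactose, 6.61 and 6.63 on glycerol, and 6.42 and 6.32 on glucose. Both lactose arrays stood above the other 4, and the glycerol arrays lay only slightly above the glucose arrays. The mean on lactose was 7.20-fold that on glycerol (95% interval 5.98 to 8.67) and 8.56-fold that on glucose (7.10 to 10.3).

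The gene for the L-carnitine dehydratase/alpha-methylacyl-CoA racemase, TRIRE2_78462, had 7.88 and 8.06 on lactose, 4.68 and 4.43 on glycerol, and 4.26 and 4.14 on glucose. The means on glycerol and glucose were both at the low end of the signal range, and it was well above it only on lactose. Lactose was 10.7-fold above glycerol (8.61 to 13.2) and 13.7-fold above glucose (11 to 16.9).

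The alpha/beta hydrolase gene TRIRE2_32243 had 11.33 and 11.14 on lactose, 9.1 and 9.0 on glycerol, and 8.75 and 8.83 on glucose. Its differences were the smallest of the 5 in both lactose comparisons. Lactose was 4.56-fold above glycerol (3.76 to 5.53) and 5.45-fold above glucose (4.50 to 6.61).

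The acyl-CoA synthetase gene TRIRE2_107947 had 12.14 and 12.06 on lactose, 9.15 and 9.60 on glycerol, and 8.67 and 8.72 on glucose. The glycerol arrays differed from each other by more than for any other of the 5 genes (SD 0.32 log2 units, n = 2). Lactose was 6.60-fold above glycerol (5.15 to 8.47) and 10.6-fold above glucose (8.24 to 13.6).

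**Figure D1:**
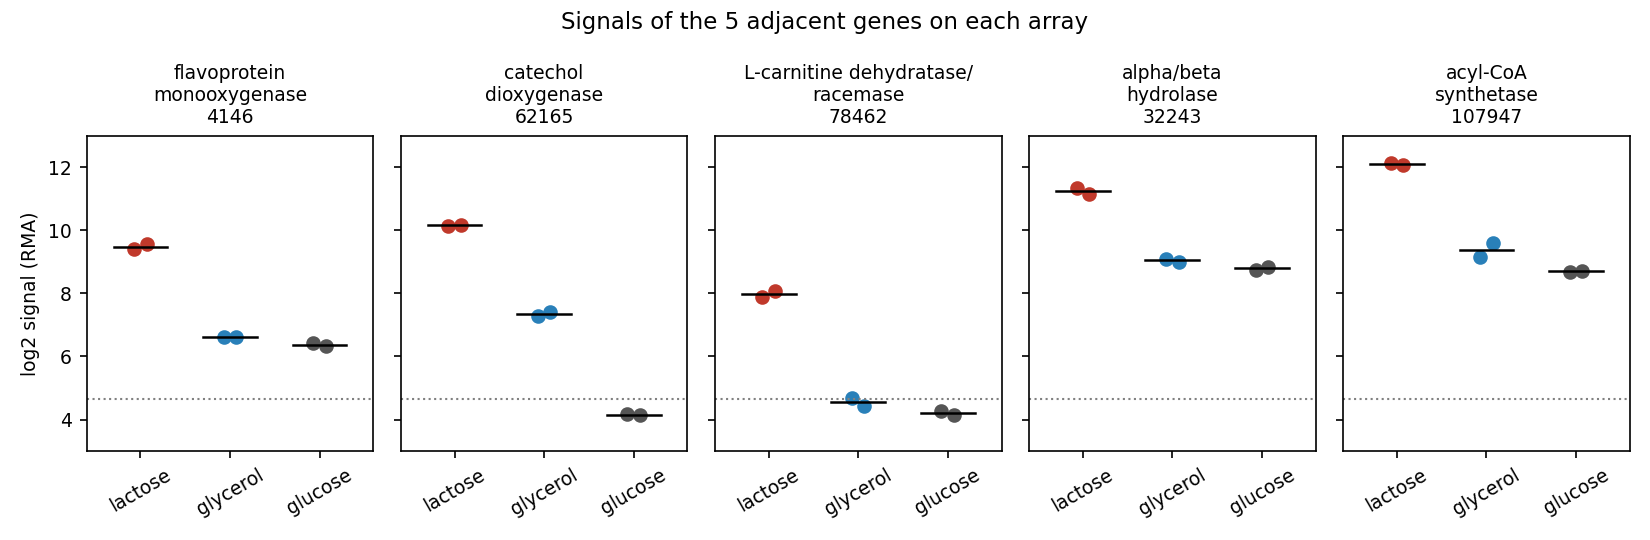
Log2 RMA signals (vertical axis) of the 5 genes on the 2 arrays each of lactose, glycerol and glucose, with points for arrays, bars for group means and a dotted line at 4.66, the limit of the low end. In every panel both lactose points lie above the other 4, as for 27.8% of all features and as the choice of the genes implies, and catechol dioxygenase TRIRE2_62165 has 3 separate levels, with means of 10.15 on lactose, 7.35 on glycerol and 4.15 on glucose.

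A gene was called different when it was over 2-fold apart and its adjusted p from limma was under 0.05. By this rule all 5 were higher on lactose than on glycerol, against a background of 14.6% of all features higher and 12.5% lower in that comparison. All 5 were also higher on lactose than on glucose, against 15.5% of all features higher and 13.9% lower, and 10.2% of all features were higher in both. These counts follow from how the genes were chosen and are not read further, and both comparisons share the lactose arrays. The median difference of the 5 was 2.80 log2 units against glycerol and 3.40 against glucose, where the medians over all features were -0.05 and -0.06. The smallest differences inside the group were those of TRIRE2_32243, 2.19 and 2.45 log2 units against glycerol and glucose. At one edge TRIRE2_4146 had 2.85 and 3.1, and the gene just outside, TRIRE2_62244, had 0.92 and 1.43. The next gene outwards there, TRIRE2_62576, had 1.93 and 4.69. At the other edge TRIRE2_107947 had 2.72 and 3.4, and the gene just outside, TRIRE2_78463, had -0.51 and -0.49.

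The genes were chosen on their lactose differences, which do not fix the direction of the comparison of glycerol with glucose. That comparison rests on the same arrays, and earlier results of these data were known, so its p-values are no independent test. In it, catechol dioxygenase TRIRE2_62165 was 9.19-fold higher on glycerol (3.20 log2 units, SE 0.11, 95% interval 2.94 to 3.46, limma adjusted p = 1.77e-07, n = 2 each). It was the 1 gene of the 5 called, and by the same rule 9.07% of all features were higher on glycerol and 8.49% lower. Leaving out each array in turn kept the difference between 3.14 and 3.26 log2 units. The glucose mean of TRIRE2_62165 was at the low end, so this fold and its interval rest in part on low-end signals.

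The acyl-CoA synthetase gene TRIRE2_107947 differed by 0.68 log2 units in the same direction, a 1.60-fold difference that had a limma adjusted p = 0.00797 but did not reach 2-fold (0.32 to 1.04, n = 2 each). Its value moved between 0.46 and 0.90 log2 units with single arrays left out. The other 3 genes had adjusted p-values above 0.05. The difference was 0.36 log2 units for TRIRE2_78462 (0.05 to 0.67, adjusted p = 0.0638 by limma), 0.25 for TRIRE2_4146 (-0.02 to 0.52, adjusted p = 0.126 by limma) and 0.26 for TRIRE2_32243 (-0.02 to 0.54, adjusted p = 0.123 by limma). The intervals of TRIRE2_4146 and TRIRE2_32243 leave room for differences of up to 0.52 and 0.54 log2 units. TRIRE2_78462 was at the low end on both glycerol and glucose, so its interval sets no limit to a difference in transcript.

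In all 5 genes both glycerol arrays lay above both glucose arrays, as they did for 32.2% of all features. The median difference was 0.36 log2 units, and the median over all features was -0.03. That median is the value of TRIRE2_78462, whose means on both carbon sources were at the low end, so it is not read as a shift of the group. By adjusted p alone, without the 2-fold limit, 2 of the 5 genes and 42.7% of all features differed between glycerol and glucose. The interval of TRIRE2_62165, which starts at 2.94, lay wholly above those of TRIRE2_4146, TRIRE2_32243 and TRIRE2_107947, the highest of which ends at 1.04. TRIRE2_78462 is left out here because its means on both carbon sources were at the low end. TRIRE2_62165 was at the low end on glucose, so its interval rests in part on such signals.

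**Figure D2:**
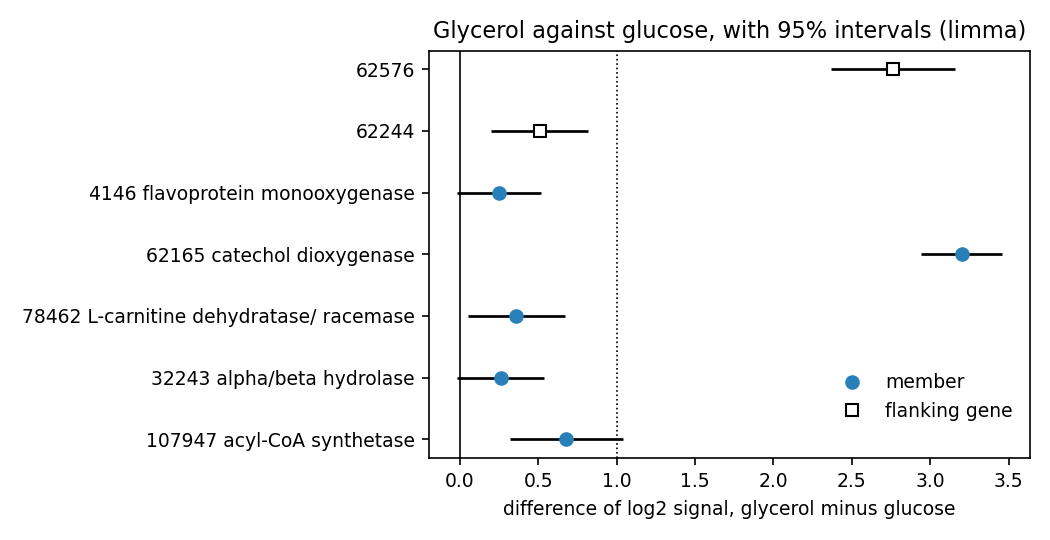
Differences of log2 signal, glycerol minus glucose (horizontal axis), for the 5 genes and the 2 genes next to them on the upstream side, with 95% intervals from limma and a dotted line at 2-fold. Catechol dioxygenase TRIRE2_62165 (3.20) and the upstream hydrolase gene TRIRE2_62576 (2.76) lie far to the right, and the other 5 genes lie at 0.25 to 0.68. The glucose mean of TRIRE2_62165 and both means of TRIRE2_78462 were at the low end.

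The same contrast among the genes shows in where the glycerol mean fell between the other carbon sources on the log2 scale. For TRIRE2_62165, glycerol reached 53.3% of the distance between the glucose and the lactose mean. For TRIRE2_4146, TRIRE2_32243 and TRIRE2_107947 it reached 8.03%, 10.6% and 20%. The share for TRIRE2_62165 rests on a glucose mean at the low end, and no share is given for TRIRE2_78462, which was at the low end on both glycerol and glucose. When each gene was centred on its own mean over the 6 arrays, the root mean square difference between any 2 of these 3 neighbours was 0.24 log2 units (TRIRE2_4146 and TRIRE2_107947) to 0.42 (TRIRE2_32243 and TRIRE2_107947). That between TRIRE2_62165 and each of them was 1.21 to 1.55. These distances include the lactose values used in choosing the genes and, for TRIRE2_62165, the glucose values at the low end, and are a description.

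The flanks were described with the 10 genes on each side, whose outer limit was drawn with the values of the group known. Against glycerol, 4 of these 20 genes were higher on lactose and 4 lower, together 40.0% of them, where 27.1% of all features were called in either direction. Against glucose 5 were higher and 5 lower, 50% of them against 29.4% of all features. Between glycerol and glucose 5 were higher on glycerol and 2 lower, 35.0% of them against 17.6% of all features. The flanking genes had medians of -0.50, -0.43 and 0.12 log2 units in the 3 comparisons. The flanking genes thus went in both directions on lactose, and their medians were below 0 in both lactose comparisons.

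On the side of TRIRE2_4146, called upstream here without regard to strand, the nearest gene was TRIRE2_62244 at 826 bp. Its signals were 10.8 and 10.87 on lactose, 9.75 and 10.07 on glycerol, and 9.39 and 9.42 on glucose. It followed the order of the 5 genes at smaller size, with 1.90-fold more signal on lactose than on glycerol and 2.7-fold more than on glucose. Its difference to glycerol thus missed the 2-fold limit, and without glycerol replicate 2 it was 1.08 log2 units and passed.

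The next gene, TRIRE2_62576, encodes a second alpha/beta hydrolase. It had 11.96 and 11.68 on lactose, 10.06 and 9.73 on glycerol, and 6.97 and 7.30 on glucose. Like TRIRE2_62165, it had 3 separate levels, with lactose 3.81-fold above glycerol and 25.9-fold above glucose. On glycerol it was 6.79-fold higher than on glucose (2.76 log2 units, 2.37 to 3.16, limma adjusted p = 4.54e-06, n = 2 each), and glycerol reached 58.9% of the distance between glucose and lactose.

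Beyond it the direction turned. The gene of the transporter TRIRE2_62747, which the study lists as MSF transporter, had 8.14 and 8.21 on lactose, 10.96 and 10.84 on glycerol, and 10.86 and 10.63 on glucose. Its differences on lactose were -2.73 log2 units against glycerol and -2.57 against glucose. A further MSF transporter on this side, TRIRE2_107936, differed by -2.10 and -2.76 log2 units on lactose against glycerol and glucose.

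Downstream of the acyl-CoA synthetase gene, at 1303 bp, the nearest gene TRIRE2_78463 had 7.72 and 7.70 on lactose, 8.26 and 8.19 on glycerol, and 8.31 and 8.08 on glucose. Its lactose differences of -0.51 and -0.49 log2 units were small, so the higher signals on lactose ended sharply on this side. The following gene, TRIRE2_107949, which encodes a protein with a ThiJ/PfpI domain, was lower on lactose by both comparisons, with differences of -1.30 log2 units against glycerol and -2.88 against glucose. Its signals on lactose and glycerol were at the low end. TRIRE2_122127 had 14.10 on both lactose arrays, 14.62 and 14.75 on glycerol, and 12.52 and 13.11 on glucose, and it was 2.44-fold higher on lactose than on glucose but not than on glycerol.

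At the far end of the downstream window, the genes TRIRE2_122131, for a protein-L-isoaspartate O-methyltransferase, which repairs damaged aspartate residues in proteins, and TRIRE2_107960, for a protein with a WSC domain, were again higher on lactose. Their differences were 1.62 and 2.22 log2 units for TRIRE2_122131, and 2.12 and 2.91 for TRIRE2_107960, against glycerol and glucose in this order. With TRIRE2_62576 they made 3 flanking genes higher on lactose than on both other carbon sources, and TRIRE2_62747, TRIRE2_107936 and TRIRE2_107949 made 3 lower. Each count is 15.0% of the flanking genes, where 10.2% of all features were higher in both comparisons and 7.28% lower.

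**Figure D3:**
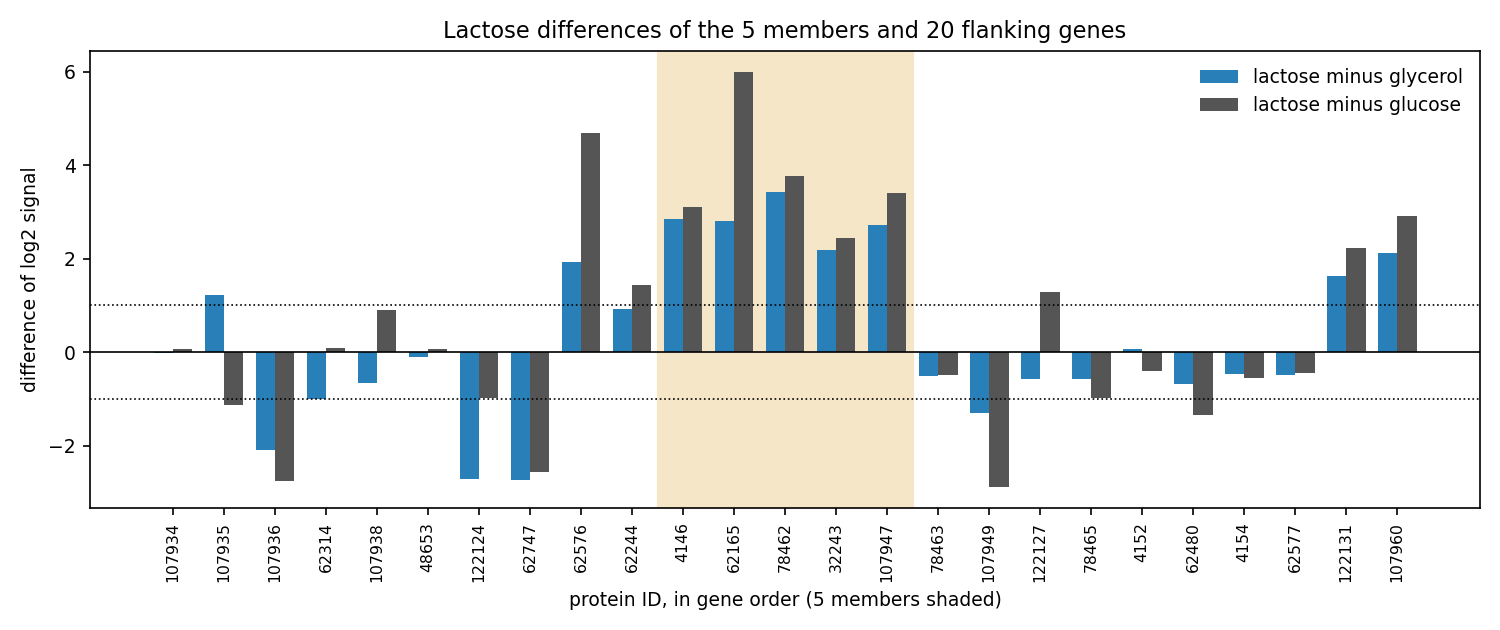
Differences of log2 signal (vertical axis) for lactose minus glycerol and lactose minus glucose, for 25 genes in gene order along the horizontal axis, with the group of 5 shaded and dotted lines at 2-fold. The shaded genes reach 2.19 to 6.0, the upstream neighbours TRIRE2_62576 and TRIRE2_62244 lie between 0.92 and 4.69, and the downstream neighbour TRIRE2_78463 is slightly below 0.

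Runs of adjacent genes higher on lactose than on both other carbon sources were counted along the 9094 array features with a place in the gene order, 928 of which were higher in both. The group formed an unbroken run of 5. The whole genome held 6 runs of 5 or more genes, 4 of them of 5 genes and 2 of 6 genes. The group's genes were chosen as neighbours high on lactose, so the length of its run only describes that choice. The run was among the longest but not unique. With the limit set at 1.5-fold, or without glycerol replicate 2, it grew to 7 genes by taking in TRIRE2_62244 and TRIRE2_62576.

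Other genes were taken from the study's annotation by words linked to aromatic ring metabolism, such as catechol, muconate, benzoylformate or flavoprotein monooxygenase. This gave 12 genes outside the group, and their substrates were not examined. The study had selected all 12 on these arrays, so their lactose counts are no independent evidence of a direction. On lactose 10 of them were higher and 2 lower against both other carbon sources, where 10.2% of all features were higher and 7.28% lower. Their medians were 1.90 log2 units against glycerol and 2.44 against glucose.

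The second catechol dioxygenase gene, TRIRE2_4876, had 12.49 and 12.18 on lactose, 10.31 and 10.25 on glycerol, and 10.47 and 10.30 on glucose. Lactose was 4.15-fold above glycerol and 3.85-fold above glucose, while glycerol and glucose arrays nearly coincided. Glycerol differed from glucose by -0.11 log2 units (-0.43 to 0.21, limma adjusted p = 0.583, n = 2 each). The interval of TRIRE2_62165 in this comparison, 2.94 to 3.46, did not meet that of TRIRE2_4876. For TRIRE2_62165 it rests on a glucose mean at the low end.

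Beside TRIRE2_4876, at a gap of 1579 bp, lay TRIRE2_4875, which encodes a carboxy-cis,cis-muconate cyclase, an enzyme that closes the opened ring to a lactone. It had 11.62 and 11.45 on lactose, 10.50 and 10.30 on glycerol, and 9.49 and 9.15 on glucose. Lactose was 2.19-fold above glycerol and 4.63-fold above glucose. This adjacent pair for ring opening and lactone formation lay outside the window of 25 genes around the group of 5.

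The 3 genes annotated with the mandelate racemase and muconate lactonizing family, whose substrates the annotation does not give, were all higher on lactose. TRIRE2_109673 was 6.87-fold above glycerol and 8.33-fold above glucose, with both of these groups at the low end. TRIRE2_104599 was 3.88-fold and 4.97-fold higher, and TRIRE2_65547 2.46-fold and 2.91-fold higher. 4-hydroxyphenylpyruvate dioxygenase (TRIRE2_121856), which acts in tyrosine breakdown, was 10.9-fold above glycerol and 8.94-fold above glucose, and the fumarylacetoacetate hydrolase family gene TRIRE2_66592 4.76-fold above glycerol and 7.73-fold above glucose, where its mean was at the low end.

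Among the decarboxylases, the 4,5-dihydroxyphthalate decarboxylase gene TRIRE2_112521 was 2.58-fold above glycerol and 5.97-fold above glucose. The benzoylformate decarboxylase gene TRIRE2_67639 was 4.0-fold and 6.91-fold higher. The flavoprotein monooxygenase genes went in different directions. TRIRE2_59095 was 3.6-fold and 6.41-fold higher on lactose, whereas TRIRE2_70311 differed by -1.86 and -2.05 log2 units. TRIRE2_73623 averaged 3.62 on lactose, at the low end, against 13.89 on glycerol and 14.58 on glucose, a difference of -10.27 and -10.96 log2 units.

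Between glycerol and glucose 2 of the 12 genes were called, both higher on glycerol. This is 16.7% of the list, close to the 17.6% of all features called in either direction. They were TRIRE2_112521, at 2.31-fold (1.21 log2 units, limma adjusted p = 4.46e-05, n = 2 each), and TRIRE2_4875, at 2.11-fold (1.08 log2 units, limma adjusted p = 0.000505, n = 2 each). Without glucose replicate 2 or without glycerol replicate 1 the count was 1, since the difference of TRIRE2_4875 was then 0.91 or 0.98 log2 units.

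**Figure D4:**
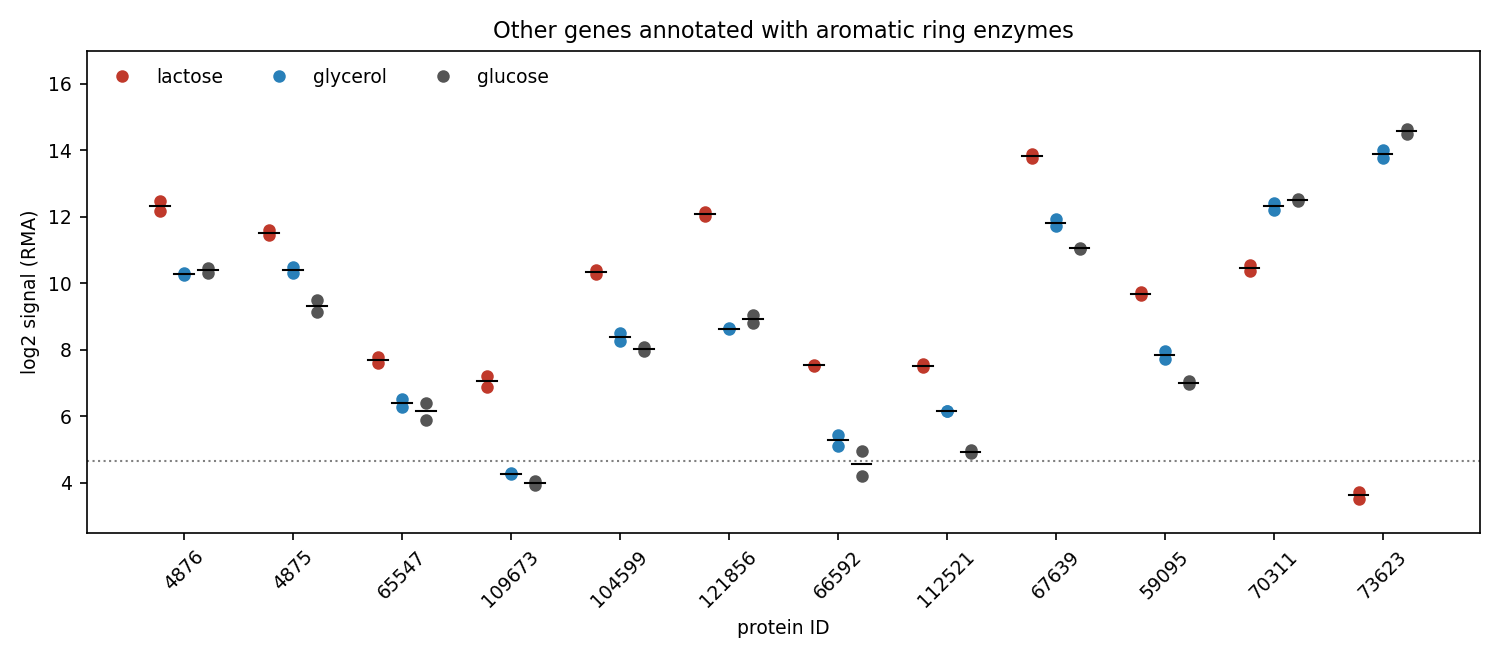
Log2 RMA signals (vertical axis) of the 12 other genes listed by words of aromatic metabolism in their annotation, by protein identifier. Points are the 2 arrays each of lactose, glycerol and glucose, bars are means and the dotted line is at 4.66. For 10 genes lactose is highest, and for TRIRE2_70311 and TRIRE2_73623 it is lowest, with TRIRE2_73623 at 3.62 on lactose.

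The genes most like TRIRE2_62165 over the 6 arrays were found by the same root mean square difference, after centring each gene, among all features outside the group. The nearest was TRIRE2_105269, which encodes a Zn2Cys6 transcriptional regulator, a class of fungal DNA-binding proteins, at 0.15 log2 units. It had 9.72 and 9.57 on lactose, 6.40 and 6.82 on glycerol, and 3.53 and 3.69 on glucose, so it too was at the low end on glucose only. Next came TRIRE2_112520, a protein the study calls unique, at 0.23, with 8.50 and 8.73 on lactose, 5.68 and 5.54 on glycerol, and 2.89 and 2.92 on glucose. This gene was at the low end on glucose as well. It lies next to TRIRE2_112521 in the gene order, at a gap of 2350 bp.

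The remaining 3 of the 5 nearest genes encode membrane transport proteins. They were the MFS permease TRIRE2_123241 at 0.25, the MFS permease TRIRE2_22912, annotated as glucose permease HXT1, at 0.30, and the cation transporting ATPase TRIRE2_81430 at 0.32 log2 units. In them lactose was 8.18-fold, 8.80-fold and 6.04-fold above glycerol, and glycerol was 6.30-fold, 5.87-fold and 6.58-fold above glucose. By the same measure the other genes of the group stood further away, at place 136 for TRIRE2_107947, 230 for TRIRE2_4146 and 382 for TRIRE2_32243 among all features. TRIRE2_78462, at the low end on both glycerol and glucose, had place 139. No place is given for the flanking gene TRIRE2_62576, which also had 3 separate levels. These places include the lactose values used in choosing the genes, and all distances rest in part on the signals of TRIRE2_62165 on glucose at the low end.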

How the data were processed

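Transcripts of T. reesei QM9414 on lactose, glycerol and glucose were measured on 6 single-colour NimbleGen arrays, 2 per carbon source. The authors deposited log2 signals, 1 per gene and array, summarised by RMA from several probes per gene. No source used here states the background correction or the RMA version. A second deposited table holds the authors' own group means, folds and 1 p-value per gene and was not used. The number of unused per-array columns was 0.

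The log2 values entered limma 3.58.1 (R 4.3.3) unchanged and unfiltered, with 1 coefficient per carbon source over all 6 arrays, default eBayes and Benjamini-Hochberg adjustment over 9126 features. The fit had 3 residual and 5.1 prior degrees of freedom and a prior SD of 0.135. The number of arrays limits the precision. Intervals are 95% limma intervals. A gene was called when over 2-fold different with an adjusted p under 0.05. The script was tested on simulated data. Alternatives were trend and robust options, fits of only the groups compared, the replicate number as a block, further quantile normalization, folds of 1.5 and 4, an adjusted p under 0.01, omission of the dimmest 25% of features, a 5-gene window, and each array left out.

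Gene order, lengths and gaps came from the RefSeq table of assembly v2.0 (9094 features matched). Sequence ends were inferred where start positions fell. Named were the 5 members, the 3 nearest genes on each side and any of the 10 per side called alike in both lactose comparisons. The 12 genes listed by words of aromatic metabolism and the 5 genes nearest in pattern to TRIRE2_62165 were named too. Cel7a was added as a label check. The members and lists were chosen with earlier results of these data known. Tables and figures were made with Python 3.11.15, pandas 2.3.3, numpy 2.4.6 and matplotlib 3.10.9. Similar proteins were not analysed here, since no protein sequences were used.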

Additional observations from a re-analysis of the deposited data

How the results depend on the processing

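For the 5 genes between glycerol and glucose, 71 of 72 alternative values kept direction and side of the threshold and 0 reversed. Only further quantile normalization and leaving out a glycerol or glucose array could change the log2 difference itself. The other settings left it as it was, so in them only the call could change. The lactose values are not counted, since the choice of the genes fixed them. The exception was TRIRE2_107947, whose 0.68 log2 units passed a 1.5-fold limit, giving 2 genes called instead of 1. Without the dimmest 25% of features only 2 of the 5 genes were tested, and the counts were 2 for lactose against glycerol, 2 for lactose against glucose and 0 for glycerol against glucose. For the flanking genes, a 4-fold limit gave 4 for lactose against glycerol, 6 for lactose against glucose and 2 for glycerol against glucose, a 5-gene window 4, 5 and 4 in the same order, and omission of dim features 5 for lactose against glycerol. For the 12 genes listed by words of aromatic metabolism, 7 remained tested without dim features. They gave 7 for lactose against glycerol, 7 for lactose against glucose and 1 for glycerol against glucose. A 4-fold limit gave 6 for lactose against glycerol and 0 for glycerol against glucose, a 1.5-fold limit gave 6 for glycerol against glucose, and single arrays left out gave 1 to 3 there. These changes follow from fewer genes tested, fewer arrays or another fold limit. The deviations of arrays with the same replicate number correlated with r = -0.14 between lactose and glycerol, -0.01 between lactose and glucose and 0.07 between glycerol and glucose, so the numbers were not taken as pairs. With the replicate block the counts of the 5 genes were 5 for lactose against glycerol, 5 for lactose against glucose and 1 for glycerol against glucose, as without it. A crossed replicate block, chosen after seeing the data, gave the same 5, 5 and 1. The alternatives for similar proteins were not run. Signals at the low end limit the folds of TRIRE2_62165 against glucose and of TRIRE2_78462 against both, and those of TRIRE2_109673 against both and of TRIRE2_66592 against glucose.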
